A study of Mus musculus with 6 samples.

Results

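The p53 target genes described here were 41 mouse genes out of 23420 gene symbols with counts. Picked by symbol as genes that p53 is known to activate, they were chosen with earlier results of these data known. They fell into 8 genes of cell cycle arrest and growth control, 14 of apoptosis, 5 of DNA repair and nucleotide supply, 7 of metabolism and redox control, and 7 that are secreted, at the cell surface or in signalling. All 41 were in the table, 40 under the listed symbol and Pidd1 under its older symbol Lrdd. Of these, 38 passed edgeR's filter on low counts and were tested. Pmaip1, Perp and Cd80 did not pass.

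The study asked how acetylation of Integrin-β1 changes transcription in endothelial cells, using eEnd2 cells, a mouse line of embryonic endothelial origin. Total RNA depleted of ribosomal RNA was sequenced from 3 cultures (A, B and C) of cells carrying a wildtype human Integrin-β1A chimera (β1-WT-GFP) and from 3 cultures of cells carrying the K794Q form (β1-K794Q-GFP), in which glutamine stands for the lysine to mimic its acetylated state. Both chimeras held eGFP in the extracellular part and were driven by a short fragment of the human β-actin promoter beside a matrix attachment region of chicken lysozyme. Both groups kept the mouse genes of the line, were stably transfected, sorted for GFP, grown to confluence and left untreated. Sorting gave GFPlow and GFPhigh populations, and the one each culture came from is not given in the sources used here. Repeated transfections are not described in the sources used here, so that the chimera and the history of the transfected cells cannot be told apart, and p-values measure the spread between cultures. In the order A, B, C the cultures with β1-WT-GFP held 10918600, 9589826 and 15287191 counts, and those with β1-K794Q-GFP 10203916, 11197729 and 11071680. Values are normalized counts (CPM, scaled to library size by the TMM method), and a count of 0 allows up to 3 counts, which is between 0.209 and 0.3 CPM in these cultures.

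The transcription factor p53 is held at a low level by the ubiquitin ligase Mdm2 and builds up when DNA damage or other stress releases it. It binds DNA as a tetramer, at sites made of a pair of like motifs, and switches on genes that stop the cell cycle, start apoptosis, repair DNA and adjust metabolism, together with Mdm2, which closes a negative feedback loop.

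RefSeq promoter windows of 300 bases (GRCm38.p6, from 250 bases before to 50 after a transcript's start) were at hand for 31 of the 41 members. They were searched for the 10-base p53 motif, which reads the same on both strands, and for the 20-base p53 site, which is a pair of these motifs placed end to end. The 10-base motif stood in a window of 11 of the 31 members (35.5%) and of 2582 of 27025 genes in the whole set (9.55%). A 20-base site with at most 1 letter off stood in 3 of the 31 (9.68%) and in 29 of all genes (0.107%). Since the members were picked as p53 targets, these shares describe the list. The sites with at most 1 letter off belonged to Cdkn1a, Ccng1 and Rps27l, and are shown because the first 2 genes had the smallest adjusted p-values of the members. Each is given 5′ to 3′ on the strand of its gene, with the 20-base site in capitals.
Cdkn1a: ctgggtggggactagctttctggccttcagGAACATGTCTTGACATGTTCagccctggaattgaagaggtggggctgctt
Ccng1: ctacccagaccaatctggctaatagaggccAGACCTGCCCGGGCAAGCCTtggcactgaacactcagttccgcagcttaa
Rps27l: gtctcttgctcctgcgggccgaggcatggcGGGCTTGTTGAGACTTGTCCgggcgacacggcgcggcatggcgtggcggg
The Cdkn1a stretch is chr17:29090898-29090977 on the plus strand, and its site begins 51 bases before the start. The Ccng1 stretch is chr11:40755432-40755511 on the minus strand, with the site 195 bases before the start. Both sites lie between genes in the GENCODE annotation. The Rps27l stretch is chr9:66946266-66946345 on the plus strand, where the site lies 117 bases before 1 of 2 RefSeq starts, after the other, and in an intron of longer GENCODE transcripts of the same gene.

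Bax, Ddit4l and Polk were among the members with the 10-base motif but no such 20-base site, and their motifs are given in capitals.
Bax: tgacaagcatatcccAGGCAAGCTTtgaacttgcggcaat
Ddit4l: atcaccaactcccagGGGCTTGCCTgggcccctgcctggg
Polk: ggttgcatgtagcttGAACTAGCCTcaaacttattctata
They lie at chr7:45467075-45467114 (minus strand), chr3:137623567-137623606 (plus strand) and chr13:96519394-96519433 (minus strand). The Ddit4l and Polk motifs fall in introns of longer transcripts of these genes, and the Bax motif falls in an intron of the neighbouring transcript Gm45808. The other members with the motif were Aen, Ei24, Gadd45a, Rap2b and Sesn1. The general promoter motifs TATAAA and CCAAT, searched on both strands, stood in 22.6% and 51.6% of the members with a window, against 15.7% and 41.1% of all genes.

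Some cultures resembled each other less than others did. With 0.5 CPM added to each value, β1-WT-GFP culture A was at least 2-fold apart from culture B in 65 genes, but from culture C in 2701. Among the β1-K794Q-GFP cultures, 903 genes were that far apart between A and C, and 2001 between A and B. β1-WT-GFP culture C and β1-K794Q-GFP culture B therefore stood apart from their groups, and many results that rest on either are given with and without it.

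More p53 target genes were higher than lower in β1-K794Q-GFP cells. Since the members were chosen with earlier results of these data known, their shares describe the list and do not test it. In edgeR's quasi-likelihood F-test, 11 of the 38 tested members (28.9%) passed the study's thresholds (2-fold or more, with unadjusted p ≤ 0.05) in the higher direction, where 3.48% of all 11608 tested genes did. In the lower direction 0 members passed, against 1.71% of all genes. At the p threshold alone this test gave 18 members higher (47.4%, against 6.08% of all genes) and 0 lower (against 4.08%). With both thresholds DESeq2 and edgeR's likelihood ratio test each called 1 member lower, Gadd45a, against 1.99% and 2.15% of all genes. An adjusted p (Benjamini-Hochberg, over all tested genes) of at most 0.05 was reached by 2 members, Cdkn1a and Ccng1, against 0.181% of all genes. All 3 β1-K794Q-GFP cultures lay above all 3 β1-WT-GFP cultures in 18 of the 38 members, which held for 8.45% of all genes. They lay below in 0 members, against 8.12% of all genes, and the groups overlapped in the other 20.

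The fitted log2 fold change was above 0 in 33 of the 38 members, against 48.4% of all tested genes. Its median was 0.84 over the members and -0.02 over all genes. The members' median log2 ratio to the β1-WT-GFP mean was 0.79, 0.73 and 0.81 with β1-K794Q-GFP (A, B, C), and it differed more between cultures within the function groups. Of the 11 called genes, 8 passed both thresholds whichever single culture was left out, namely Cdkn1a, Ccng1, Zmat3, Eda2r, Ddit4l, Dcxr, Ephx1 and Gdf15. Of these, Ddit4l and Gdf15 had few counts with β1-WT-GFP and were not tested when at least 10 counts were required in every culture, which left 9 called genes of 36, against 2.98% of all genes tested under that filter in the higher direction. In these bulk samples, more RNA per cell and more cells that express a gene cannot be told apart.

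**Figure D1:**
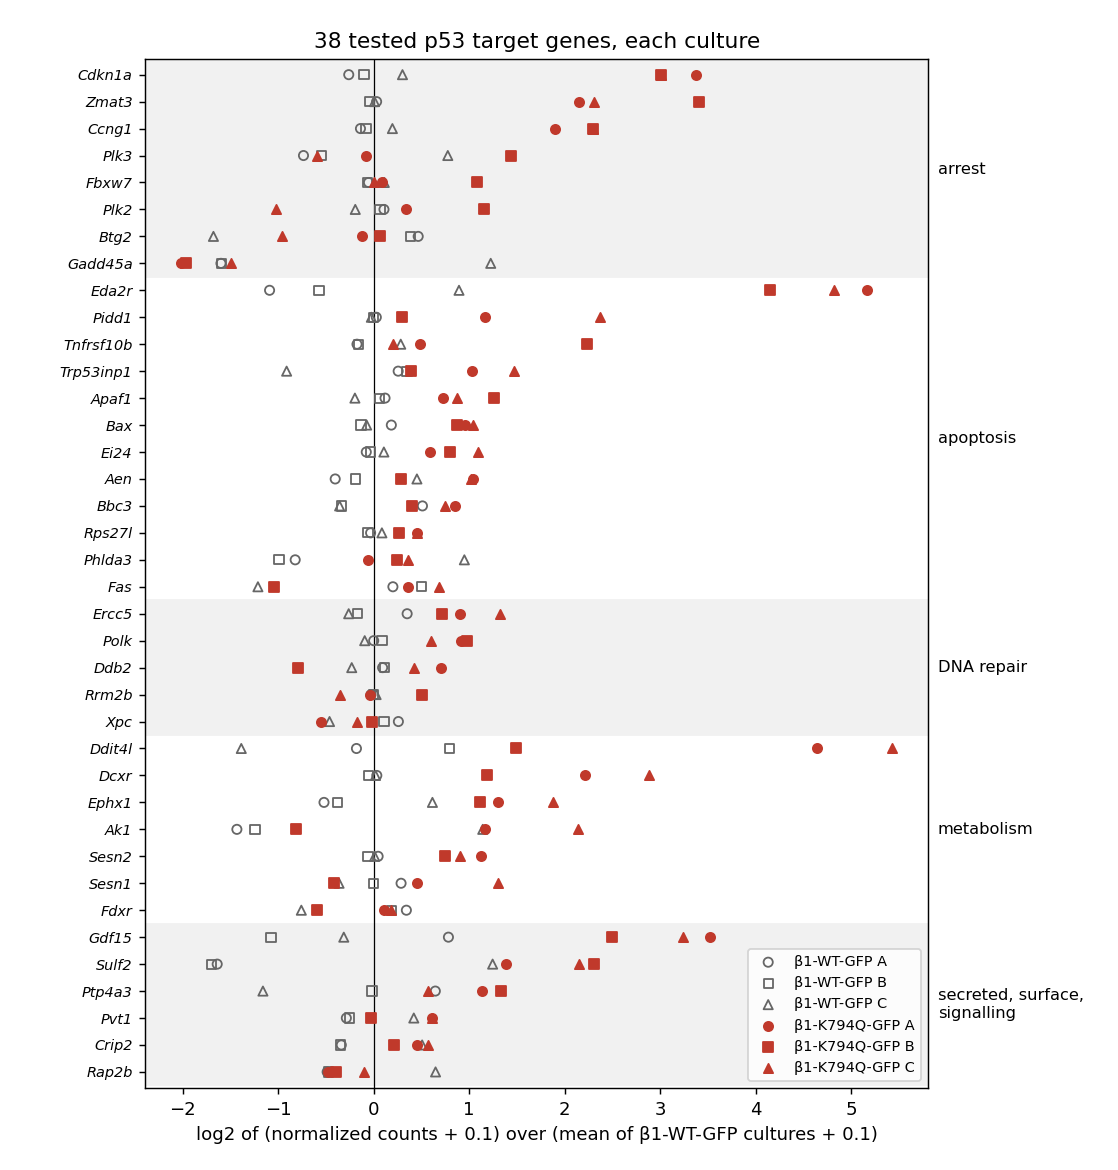
Each row is 1 of the 38 tested p53 target genes, grouped by function, and each point is 1 culture, placed at the log2 ratio of its normalized counts to the mean of the β1-WT-GFP cultures, with 0.1 CPM added to both. Open grey symbols are β1-WT-GFP cultures and filled red symbols β1-K794Q-GFP cultures, and the 3 red symbols lie to the right of all grey symbols in 18 rows.

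The endothelial label was checked by the levels of 10 marker genes, all tested. Of these, 0 passed in either direction with the quasi-likelihood test, DESeq2, the likelihood ratio test or the p threshold alone. Of all tested genes 3.48% passed higher and 1.71% lower with the quasi-likelihood test and both thresholds. Among the 10 markers Pecam1 had the highest mean over the cultures, with Cdh5 above it in β1-WT-GFP culture C and β1-K794Q-GFP culture B. Their summed normalized counts were between 6531 and 12167 per culture, and Vwf stayed near 0, at 2.41 or less. Epithelial markers summed to at most 0.592 normalized counts in any culture, with Epcam and Krt18 at 0 counts, and those of smooth muscle and pericytes to at most 1.81, with Rgs5 and Des at 0 counts. Of 4 blood markers present in the table, Lyz2 was at 0 counts, and the sum, nearly all of it Cd68, was between 31.0 and 103.4 normalized counts per culture. The 8 mesenchymal markers summed to 184, 195 and 84.3 normalized counts with β1-WT-GFP (A, B, C) and to 3.66, 0.592 and 2.49 with β1-K794Q-GFP (A, B, C), while Thy1, Lum and Dcn had 0 counts. The most abundant of them by its mean, the transcription factor gene Prrx1, had 183, 194 and 56.5 normalized counts with β1-WT-GFP (A, B, C) and 0.0963, 0.0987 and 0 with β1-K794Q-GFP (A, B, C). It was lower in every mutant culture (edgeR, adjusted p = 0.0198). The other 7 markers summed to 0.787, 1.20 and 27.7 normalized counts with β1-WT-GFP (A, B, C) and to 3.56, 0.493 and 2.49 with β1-K794Q-GFP (A, B, C), so that they stood high in β1-WT-GFP culture C alone. Pdgfra among them turned from a log2 fold change of -2.31 to 0.96 on leaving out that culture. Prrx1 thus moved with the groups, in which the p53 target genes of each function group were compared, and a link between them was not tested.

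Of the 8 genes of arrest and growth control, 3 rose in β1-K794Q-GFP cells (37.5%, against 3.48% of all tested genes) and 5 did not pass the test. Their median log2 ratio to the wildtype mean was 0.22, 1.30 and -0.30 with β1-K794Q-GFP (A, B, C), so that it was below 0 in culture C. Cdkn1a, which encodes the cyclin-dependent kinase inhibitor p21, had 31.8, 35.5 and 46.9 normalized counts with β1-WT-GFP (A, B, C) and 394, 306 and 306 with β1-K794Q-GFP (A, B, C). The groups were far apart, with culture A highest in the mutant group. The fold change was 8.81 (log2 3.14 ± 0.24 SE, adjusted p = 0.0198).

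Ccng1 encodes cyclin G1, an atypical cyclin that binds a phosphatase subunit and takes part in the control of Mdm2 and p53. It had 35.2, 36.6 and 44.4 normalized counts with β1-WT-GFP (A, B, C) and 144.1, 190.0 and 190.1 with β1-K794Q-GFP (A, B, C). Every β1-K794Q-GFP culture was above every β1-WT-GFP culture, and the spread within each group was small beside the gap. It rose 4.51-fold (log2 2.17 ± 0.20 SE, adjusted p = 0.0336).

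Zmat3, a zinc finger protein that binds RNA, had 32.8, 31.2 and 32.3 normalized counts with β1-WT-GFP (A, B, C) and 142.3, 342.1 and 159.6 with β1-K794Q-GFP (A, B, C). The wildtype cultures were nearly alike, and culture B was the highest of the mutant cultures. Its fitted log2 fold change was 2.74 ± 0.38 SE (adjusted p = 0.0825), and 2.24 without β1-K794Q-GFP culture B.

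Plk2, a polo-like kinase, had the highest mean normalized count of the tested arrest genes. Its values were 748, 727 and 608 with β1-WT-GFP (A, B, C) and 878, 1545 and 341 with β1-K794Q-GFP (A, B, C). The groups overlapped, since mutant culture B was the highest and mutant culture C the lowest of the 6. The log2 fold change of 0.41 ± 0.52 SE turned to -0.18 without β1-K794Q-GFP culture B. Gadd45a, a stress sensor, had 77.4 normalized counts in β1-WT-GFP culture C and between 8.09 and 11.7 in the other 5 cultures. Its log2 fold change was -1.82 ± 0.83 SE (adjusted p = 0.555), and -0.20 without β1-WT-GFP culture C. Gadd45a was called lower without β1-WT-GFP culture A (-2.23) and without β1-WT-GFP culture B (-2.23). The antiproliferative gene Btg2, the polo-like kinase gene Plk3 and Fbxw7, a substrate receptor of a ubiquitin ligase, had log2 fold changes of -0.27, 0.52 and 0.48 and overlapping groups. Plk3 turned to -0.32 and Fbxw7 fell to 0.05 without β1-K794Q-GFP culture B, and Plk3 rose to 1.17 without β1-WT-GFP culture C. Btg2 turned to 0.03 without β1-WT-GFP culture A and fell to -0.69 without β1-WT-GFP culture C.

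**Figure D2:**
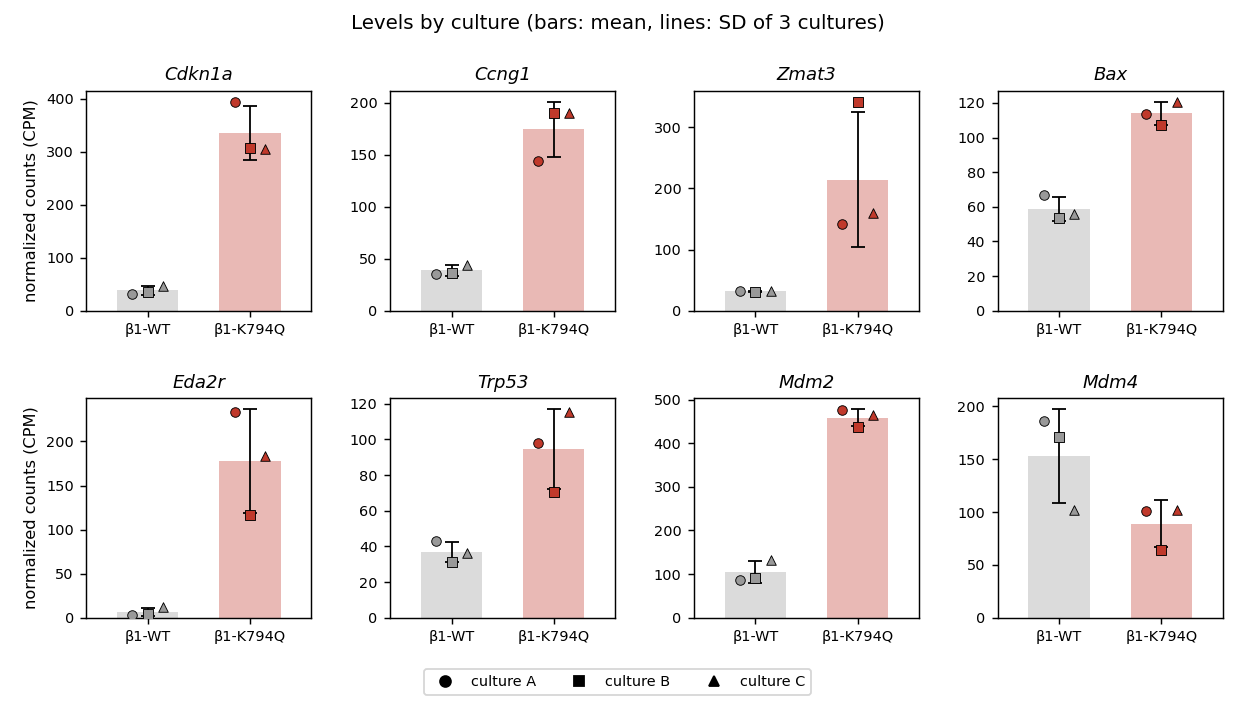
Normalized counts (CPM) of 5 p53 target genes, of Trp53 and of its regulators Mdm2 and Mdm4, with 1 symbol per culture, bars at the mean and lines for the SD of 3 cultures. Cdkn1a, Ccng1, Zmat3, Bax, Eda2r, Trp53 and Mdm2 lie higher in every β1-K794Q-GFP culture than in any β1-WT-GFP culture, and Mdm4 lies lower.

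Among the 14 apoptosis genes 12 were tested, of which 3 rose (25%, against 3.48% of all tested genes), and 9 did not pass both thresholds. At the p threshold alone 8 were higher, against 6.08% of all tested genes, namely the 3 and Bax, Apaf1, Ei24, Rps27l and Aen. All 12 had a log2 fold change above 0, with a median of 0.90. By culture the median log2 ratio was 0.79, 0.39 and 0.95 with β1-K794Q-GFP (A, B, C).

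Eda2r, a receptor of the TNF receptor family that binds ectodysplasin A2, had 2.97, 4.30 and 12.05 normalized counts with β1-WT-GFP (A, B, C) and 234, 116 and 184 with β1-K794Q-GFP (A, B, C). The lowest mutant culture was well above the highest wildtype culture. It rose 27.4-fold (log2 4.78 ± 0.63 SE, adjusted p = 0.0776), with a log2 fold change of 5.62 without β1-WT-GFP culture C.

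Bax, which forms pores in the outer mitochondrial membrane, had 66.7, 53.5 and 55.7 normalized counts with β1-WT-GFP (A, B, C) and 114, 107 and 121 with β1-K794Q-GFP (A, B, C). The groups did not overlap and each was tight. The fold change of 1.94 (log2 0.96 ± 0.16 SE, adjusted p = 0.0955) fell short of the fold threshold, which was passed without β1-WT-GFP culture A (log2 1.06) and without β1-K794Q-GFP culture B (log2 1.01).

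Apaf1, the scaffold of the apoptosome, had 94.4, 90.5 and 75.8 normalized counts with β1-WT-GFP (A, B, C) and 144, 209 and 159 with β1-K794Q-GFP (A, B, C). The mutant cultures were all higher, culture B most. The log2 fold change was 0.97 ± 0.21 SE (adjusted p = 0.158), just short of the fold threshold, and it passed both thresholds in 4 of the 6 fits with a culture left out: without β1-WT-GFP culture A (1.03) or B (1.00), and without β1-K794Q-GFP culture A (1.08) or C (1.02). Ei24, a protein of the endoplasmic reticulum, had 59.6, 61.3 and 67.7 normalized counts with β1-WT-GFP (A, B, C) and 94.4, 109 and 134 with β1-K794Q-GFP (A, B, C). These groups were also separate, with a log2 fold change of 0.84 ± 0.18 SE (adjusted p = 0.168).

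Pidd1, which forms the platform on which caspase-2 is activated, had 7.87, 7.70 and 7.59 normalized counts with β1-WT-GFP (A, B, C) and 17.4, 9.47 and 40.2 with β1-K794Q-GFP (A, B, C). The wildtype cultures were nearly equal, while the mutant cultures were spread widely and culture B came close to the wildtype level. It rose by a log2 fold change of 1.53 ± 0.52 SE (adjusted p = 0.375), but passed in only 2 of the 6 fits with a culture left out. Leaving out β1-WT-GFP culture A (1.54), B (1.53) or C (1.54) lost the call, as did leaving out β1-K794Q-GFP culture C, with a log2 fold change of 0.80.

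Trp53inp1, a nuclear protein that promotes p53 activity and autophagy, had 162, 173 and 72.1 normalized counts with β1-WT-GFP (A, B, C) and 276, 178 and 376 with β1-K794Q-GFP (A, B, C). Mutant culture B was barely above the highest wildtype culture. The log2 fold change of 1.03 ± 0.42 SE (adjusted p = 0.487) was at the edge of both thresholds, and the call held in 1 of the 6 fits with a culture left out, that without β1-K794Q-GFP culture B (1.28). In the other 5 fits the log2 fold change ranged from 0.74, without β1-WT-GFP culture C, to 1.24, without β1-WT-GFP culture B. Rps27l, a close relative of the ribosomal protein S27, had 46.5, 45.6 and 50.4 normalized counts with β1-WT-GFP (A, B, C) and 65.2, 56.9 and 65.2 with β1-K794Q-GFP (A, B, C). The groups were separate and the change was small, with a log2 fold change of 0.39 ± 0.15 SE (adjusted p = 0.421).

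Tnfrsf10b and Fas, both death receptors, did not pass in the quasi-likelihood test, while DESeq2 and the likelihood ratio test called Tnfrsf10b higher. Tnfrsf10b, the mouse TRAIL receptor, had 373 normalized counts in β1-K794Q-GFP culture B and between 70.2 and 111 in the other 5 cultures, and its log2 fold change of 1.27 became 0.35 without culture B. It passed without β1-K794Q-GFP culture A (1.54) and without β1-K794Q-GFP culture C (1.61). Fas overlapped between the groups, with a log2 fold change of 0.18 that turned to -0.17 on leaving out culture C of either group. Bbc3, the PUMA gene of the BH3-only family, ranged from 7.87 to 14.4 normalized counts with β1-WT-GFP and from 13.3 to 18.3 with β1-K794Q-GFP (log2 fold change 0.68), and it passed without β1-WT-GFP culture A (1.03). Aen, an exonuclease, and Phlda3, which opposes Akt at the membrane, had log2 fold changes of 0.82 and 0.19. Without β1-WT-GFP culture C both passed, with 1.13 for Aen and 1.11 for Phlda3, and Aen also passed without β1-K794Q-GFP culture B (1.03). Phlda3 turned to -0.10 on leaving out β1-WT-GFP culture A and to -0.13 on leaving out culture B.

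Pmaip1 and Perp were under the filter. Pmaip1, the NOXA gene of the BH3-only family, had 0.612, 0.600 and 2.16 normalized counts with β1-WT-GFP (A, B, C) and 0.0963, 22.1 and 0 with β1-K794Q-GFP (A, B, C). A single mutant culture, B, held most of its counts, and it is named for that, after its values were seen. Perp, a membrane protein of desmosomes, had 0 counts in all 6 cultures.

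Of the 5 genes of DNA repair and nucleotide supply, 1 rose (20%, against 3.48% of all tested genes), and the median log2 fold change was 0.25. By culture the median log2 ratio was 0.72, 0.51 and 0.43 with β1-K794Q-GFP (A, B, C). Ercc5, the endonuclease XPG of nucleotide excision repair, had 17.9, 12.5 and 11.7 normalized counts with β1-WT-GFP (A, B, C) and 26.4, 23.1 and 35.2 with β1-K794Q-GFP (A, B, C). The groups did not overlap. The log2 fold change of 1.01 ± 0.27 SE (adjusted p = 0.252) was just past the fold threshold, and the call was lost on leaving out β1-WT-GFP culture B (0.93) or culture C (0.90) and without β1-K794Q-GFP culture C (0.82).

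Polk, a polymerase that copies past damaged bases, had 44.6, 47.4 and 41.8 normalized counts with β1-WT-GFP (A, B, C) and 84.0, 87.8 and 67.7 with β1-K794Q-GFP (A, B, C). Every mutant culture was higher, with a log2 fold change of 0.84 ± 0.17 SE (adjusted p = 0.141) that did not reach the fold threshold. Rrm2b, the p53-dependent subunit of ribonucleotide reductase, and the damage recognition genes Xpc and Ddb2 had log2 fold changes of 0.08, -0.23 and 0.25. Their groups overlapped. Rrm2b turned to -0.19 without β1-K794Q-GFP culture B and Ddb2 to -0.05 without β1-K794Q-GFP culture A.

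Of the 7 genes of metabolism and redox control, 3 rose (42.9%, against 3.48% of all tested genes) and 4 did not pass both thresholds. Of the 3, Ddit4l had few counts with β1-WT-GFP and was not tested when at least 10 counts were required in every culture. The median log2 fold change of the 7 was 1.26. By culture the median log2 ratio was 1.17, 0.75 and 1.88 with β1-K794Q-GFP (A, B, C). Ephx1, the microsomal epoxide hydrolase, had the highest mean normalized count among them, with 55.6, 61.5 and 122 with β1-WT-GFP (A, B, C) and 196, 173 and 294 with β1-K794Q-GFP (A, B, C). Wildtype culture C was the highest of its group and still below each mutant culture. Ephx1 changed by a log2 fold change of 1.47 ± 0.38 SE (adjusted p = 0.239).

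Dcxr, a carbonyl reductase of sugar metabolism, had 3.94, 3.70 and 3.90 normalized counts with β1-WT-GFP (A, B, C) and 18.2, 8.88 and 29.0 with β1-K794Q-GFP (A, B, C). The wildtype values were nearly equal and mutant culture B was the lowest of its group. For Dcxr the log2 fold change was 2.28 ± 0.45 SE (adjusted p = 0.142).

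Ddit4l, an inhibitor of mTORC1 signalling, had 0.612, 1.30 and 0.209 normalized counts with β1-WT-GFP (A, B, C) and 20.03, 2.17 and 34.7 with β1-K794Q-GFP (A, B, C). Mutant cultures A and C were high, and B was close to the wildtype cultures. With 23 counts in all β1-WT-GFP cultures and 633 in all β1-K794Q-GFP cultures, the ratio of pooled counts, each over its group's pooled library sizes, was 30.6 (95% interval 20.2 to 48.7, exact binomial, counting error only). The fitted log2 fold change was 4.77 ± 1.15 SE (adjusted p = 0.207), 3.99 without β1-K794Q-GFP culture C and 5.52 without β1-WT-GFP culture B.

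Sesn2, a sestrin that restrains mTORC1, had 23.4, 21.7 and 22.8 normalized counts with β1-WT-GFP (A, B, C) and 49.4, 37.9 and 42.5 with β1-K794Q-GFP (A, B, C). The groups were separate and the log2 fold change of 0.94 ± 0.17 SE (adjusted p = 0.120) was short of the fold threshold, which it passed without β1-K794Q-GFP culture B (1.03). Its relative Sesn1, the adenylate kinase gene Ak1 and Fdxr, which passes electrons to mitochondrial P450 enzymes, overlapped between the groups, with log2 fold changes of 0.62, 1.26 and -0.06. Fdxr turned to 0.14 on leaving out β1-WT-GFP culture A, to 0.04 on leaving out culture B, and to 0.16 without β1-K794Q-GFP culture B. Ak1 passed both thresholds without β1-WT-GFP culture C, with a log2 fold change of 2.63, and on leaving out β1-K794Q-GFP culture C it fell to 0.49.

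Of the 7 secreted, surface and signalling genes 6 were tested, and 1 rose in the quasi-likelihood test (16.7%, against 3.48% of all tested genes), Gdf15, which was not tested when at least 10 counts were required in every culture. DESeq2 called 3 of them higher, Gdf15, Sulf2 and Ptp4a3, against 4% of all tested genes, and the likelihood ratio test 2, Gdf15 and Sulf2, against 4.12%. The median log2 ratio was 0.88, 0.78 and 0.59 with β1-K794Q-GFP (A, B, C). Gdf15, a secreted protein of the TGF-β family, was at a low level, with 0.262, 0 and 0.0696 normalized counts with β1-WT-GFP (A, B, C) and 2.31, 1.09 and 1.89 with β1-K794Q-GFP (A, B, C). Every mutant culture was above the wildtype cultures, which held 4 counts in all. The same ratio of pooled counts was 15.9 (95% interval 5.87 to 60.2, exact binomial), and the fitted log2 fold change 3.85 ± 0.88 SE (adjusted p = 0.183), 5.13 without β1-WT-GFP culture A.

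Sulf2, an extracellular enzyme that takes sulfate groups off heparan sulfate, had 5.95, 5.70 and 44.5 normalized counts with β1-WT-GFP (A, B, C) and 48.9, 92.7 and 83.2 with β1-K794Q-GFP (A, B, C). The groups were separate only just, since wildtype culture C was close to mutant culture A. The log2 fold change was 1.99 ± 0.86 SE (adjusted p = 0.512, not past the p threshold), and 3.69 without β1-WT-GFP culture C, where it passed. Crip2, a LIM domain protein, had 75.3, 75.0 and 135 normalized counts with β1-WT-GFP (A, B, C) and 131, 110.0 and 141 with β1-K794Q-GFP (A, B, C). Wildtype culture C lay among the mutant values. The log2 fold change was 0.42 ± 0.28 SE (adjusted p = 0.724), and 0.77 without β1-WT-GFP culture C. The phosphatase gene Ptp4a3, the long noncoding RNA Pvt1 and the GTPase gene Rap2b had log2 fold changes of 1.06, 0.43 and -0.31. Ptp4a3 passed without β1-WT-GFP culture A, with 1.54, and fell to 0.71 without β1-WT-GFP culture C. Rap2b turned to 0.18 without β1-WT-GFP culture C. Cd80, a costimulatory ligand, had 0 counts in the β1-WT-GFP cultures and 4 in all β1-K794Q-GFP cultures.

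**Figure D3:**
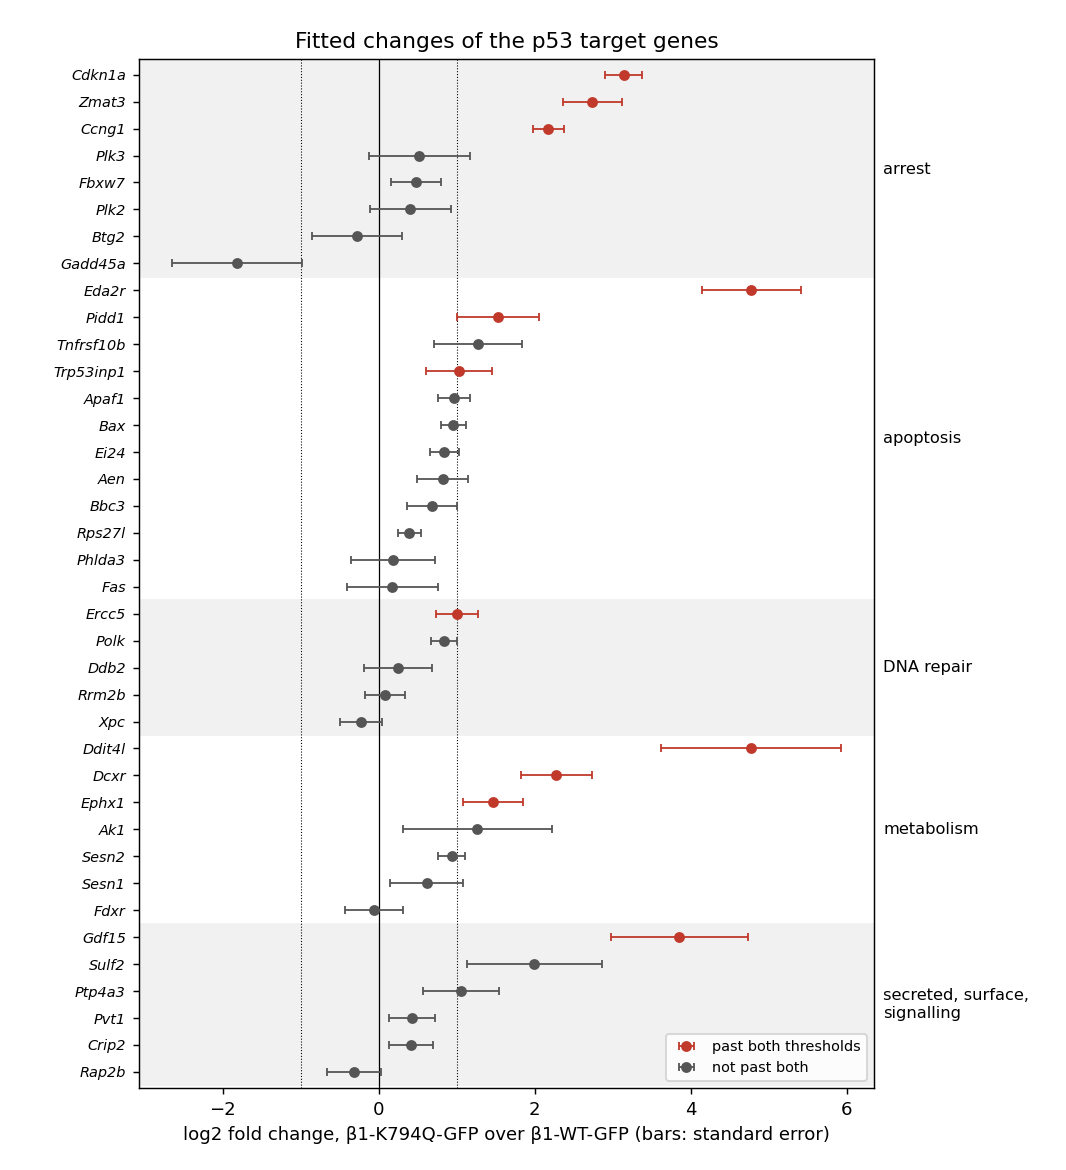
Fitted log2 fold change of each tested p53 target gene, β1-K794Q-GFP over β1-WT-GFP, with bars for the standard error, grouped by function. The 11 genes past both thresholds are red, dotted lines mark a fold change of 2 in each direction, and 5 genes lie left of 0.

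β1-K794Q-GFP culture B, which stood apart over the whole table, did so in some members too, and their shares were not tested against those of all genes. Against the mean of cultures A and C, β1-K794Q-GFP culture B was at least 2-fold higher in 5 of the 38 tested members (13.2%, against 7.39% of all tested genes) and at least 2-fold lower in 7 (18.4%, against 13% of all tested genes). The higher members were Plk2, Plk3, Zmat3, Fbxw7 and Tnfrsf10b, of which 4 are arrest genes. The lower ones were Fas, Pidd1, Ddb2, Sesn1, Ddit4l, Ak1 and Dcxr, with none of the arrest genes. Among the tested members the largest ratios were 3.70 for Tnfrsf10b on the high side and 0.0794 for Ddit4l on the low side. Cdkn1a, Ccng1 and Bax differed little, with ratios of 0.875, 1.14 and 0.916. In the wildtype group, culture C was at least 2-fold above the mean of A and B in 8 members (21.1%, against 12.2%) and at least 2-fold below in 6 (15.8%, against 12.7%). Its highest ratios were 7.64 for Sulf2, 7.12 for Gadd45a and 5.64 for Ak1. These members are named after their values were seen.

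**Figure D4:**
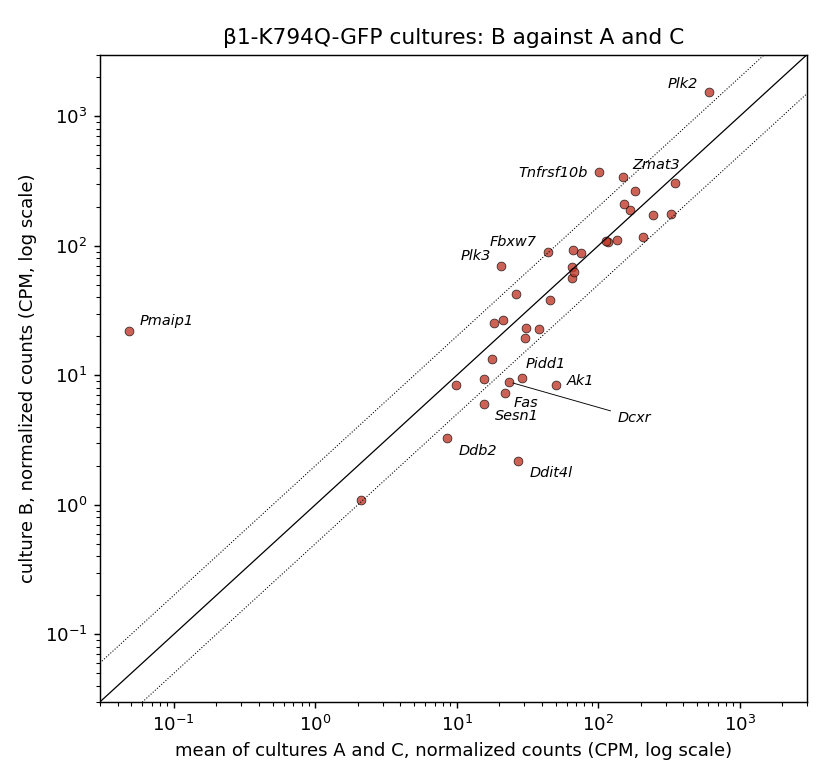
Normalized counts (CPM) in β1-K794Q-GFP culture B against the mean of β1-K794Q-GFP cultures A and C, both on log scales, for 39 of the 41 p53 target genes (Perp and Cd80 are left out). The solid line marks equal levels and the dotted lines a 2-fold difference, and the named genes lie outside them.

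Among p53 and its regulators, 17 of 19 listed genes were tested, and 2 rose (11.8%, against 3.48% of all tested genes), Trp53 and Mdm2. Trp53, the p53 gene itself, had 42.9, 31.4 and 36.4 normalized counts with β1-WT-GFP (A, B, C) and 98.1, 70.5 and 115 with β1-K794Q-GFP (A, B, C) (log2 fold change 1.36 ± 0.24 SE, adjusted p = 0.104). Mdm2 had 87.7, 92.2 and 133 normalized counts with β1-WT-GFP (A, B, C) and 475, 437 and 465 with β1-K794Q-GFP (A, B, C) (log2 fold change 2.14 ± 0.23 SE, adjusted p = 0.0474). Both genes were separate between the groups. With the quasi-likelihood test 0 regulators passed both thresholds in the lower direction, against 1.71% of all tested genes. DESeq2 and the likelihood ratio test also gave 0. At the p threshold alone 1 regulator, Mdm4, was lower, against 4.08% of all tested genes. Mdm4, a relative of Mdm2 that also holds p53 in check, had a log2 fold change of -0.78 ± 0.31 SE (adjusted p = 0.450). Its groups were separate only just, with 101.99 normalized counts in β1-K794Q-GFP culture C and 102.17 in β1-WT-GFP culture C.

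A further list held 16 genes also described as p53 targets, and its difference from the members was not tested. Of these, 14 were tested, 0 passed both thresholds in either direction with the quasi-likelihood test or DESeq2, and 0 passed the p threshold alone. Of all tested genes 3.48% passed both thresholds higher and 1.71% lower with the quasi-likelihood test. The likelihood ratio test called 2 of the list lower, 1 of them Thbs1. The median log2 fold change of this list was -0.11. Thbs1, the matrix protein thrombospondin, had 3261 normalized counts in β1-WT-GFP culture C and between 1.57 and 62.0 in the others. Without that culture its log2 fold change turned from -5.47 to 3.00, and it was called in neither fit. The 12 listed cell cycle genes that p53 is known to lower through p21 and the DREAM complex were all tested. Of these, 0 passed in either direction with the quasi-likelihood test, against the same 3.48% and 1.71% of all tested genes. DESeq2, the likelihood ratio test and the p threshold alone also gave 0. The median log2 fold change of the 12 was -0.24. On leaving out β1-WT-GFP culture C all 12 had positive fitted changes, on the log2 scale from 0.41 for Ccnb2 to 1.78 for Cdk1, and Cdk1 and Bub1 (1.16) were called higher. Over all tested genes that fit called 992 in either direction, against 603 with all cultures. The share of the 12 was not tested against that of all genes. All 12 taken as a list stood high in β1-WT-GFP culture C, with a median log2 ratio of 0.97 to the wildtype mean there, -0.83 in β1-WT-GFP culture A and -1.04 in culture B, against -0.40, -0.87 and 0.32 with β1-K794Q-GFP (A, B, C).

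Changes of the genes around the members on their chromosomes were mostly small. For 34 of the 38 tested members, the median log2 fold change of the 12 tested genes on either side lay between -0.29 and 0.24. The other 4 were Apaf1 on chromosome 10, at 0.60, and Ephx1, Btg2 and Phlda3 on chromosome 1, at -0.46, -0.53 and -0.65. Mdm2, also on chromosome 10, stood among neighbours with a median of 0.95, and Mdm4, on chromosome 1, among neighbours with a median of -0.49. Around Cdkn1a on chromosome 17 and Ccng1 on chromosome 11 the medians were 0.00 and -0.10, where the genes themselves changed by 3.14 and 2.17 on the log2 scale. The part of the neighbourhood in the values of these genes was not tested.

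Members with the 10-base p53 motif in a promoter window and those without it can be set side by side, where 3.48% of all tested genes rose and the groups were separate with the mutant above in 8.45%. Of the 11 with it, all tested, 3 rose, 7 had all mutant cultures above, and the median log2 fold change was 0.84. Of the 19 tested members without it, 6 rose, 9 had all mutant cultures above, and the median was 0.94. The difference was not tested, and the windows cover only a short stretch before the start.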

How the data were processed

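Total RNA of 3 β1-WT-GFP and 3 β1-K794Q-GFP eEnd2 cultures was sequenced. Per the submitters' processing notes, the authors used bcl2fastq 2.20.0, STAR 2.7.4a, HTSeq 0.9.1 and edgeR 3.38.4 with build mm10, and deposited raw counts of reads per gene symbol, with 0 further columns of per-sample values. The annotation and the use of strand are not given in the sources used here, so that reads of overlapping and antisense genes cannot be told apart. The study describes a repeat sequencing of the same samples. The run that the counts come from is not given in the sources used here, and they were taken as 1 value per culture.

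The whole table was fitted with edgeR 4.0.16 (R 4.3.3): filterByExpr kept 11608 of 23420 symbols, followed by TMM and the two-sided quasi-likelihood F-test without covariates (common dispersion 0.186), with Benjamini-Hochberg adjusted p-values. The older form of the fit, as edgeR 3.38.4 runs it, was used in place of the newer default of edgeR 4.0.16. This was chosen after the counts of calls under both were known. SE is the size of the log2 fold change over the square root of its F statistic. With 3 cultures a group, the smallest exact permutation p is 0.1. Floors and intervals cover counting error only. The members and lists were chosen with earlier results of these data known. Genes named with values were the members past both thresholds, those whose groups did not overlap, Cdkn1a, Bax and Ccng1, the most abundant tested member of each function group, and Trp53 and Mdm2. Others are named after their values were seen. Alternatives were other filters, RLE scaling, DESeq2 1.42.0, the likelihood ratio test, a block by culture letter, leaving out cultures, an adjusted p threshold and a narrower window of neighbours. The fit was tested on simulated counts, and the outcome of that test is not given here. Positions and promoters came from RefSeq (GRCm38.p6) and annotations from GENCODE, matched by symbol, and Ddb2, Perp, Pmaip1, Ptp4a3, Pvt1, Rrm2b, Tnfrsf10b, Trp53inp1, Xpc and Zmat3 had no promoter entry. Tables and figures were made with matplotlib 3.10.9, numpy 2.4.6, scipy 1.17.1 and pandas 2.3.3 under Python 3.11.15.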

Additional observations from a re-analysis of the deposited data

How the results depend on the processing

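The count of p53 target genes past both thresholds in the higher direction, 11, ranged from 9 to 15 over the other filters, RLE scaling, DESeq2 (14), the likelihood ratio test (13) and the fits without cultures. Of all tested genes 3.48% passed in that direction, 4% with DESeq2 and 4.12% with the likelihood ratio test. At an adjusted p of at most 0.05 the count of members was 2. The newer quasi-likelihood fit, added after seeing the data, called the same 11. With at least 10 counts required in every culture, Ddit4l and Gdf15 were not tested, and without a filter Ercc5 was lost and Sulf2 gained. In the lower direction the count was 0, and 1 with DESeq2 and with the likelihood ratio test, and between 0 and 1 with 1 culture left out. Leaving out β1-WT-GFP culture C and β1-K794Q-GFP culture B together gave 15 members, 10 of them shared with the 11. In that fit 1661 of all tested genes passed in either direction, against 603 with all cultures. Over all tested genes the count was 603, and it moved to 916 without a filter, to 425 with at least 10 counts required in every culture, to between 501 and 992 with 1 culture left out, to 1661 without both of those cultures, and to 21 at an adjusted p of at most 0.05. The causes of these moves were not tested. The log2 fold change of Plk2 was -0.26 without both cultures, and between -0.18 and 0.80 with 1 culture left out.

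Whether the culture letters pair the samples was not settled. The correlation of deviations from the group means was 0.11 for A, 0.06 for B and 0.10 for C. Between unlike letters it was 0.11 for β1-WT-GFP culture B with β1-K794Q-GFP culture A, and from -0.16 to -0.01 for the rest. With a block by letter, 571 genes passed, 12 of them members, 9 shared with the 11. Pidd1 and Trp53inp1 were lost, and Ak1, Ptp4a3 and Sulf2 gained.

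The narrower window of 6 genes on either side gave 0.56 around Apaf1 and 0.94 around Mdm2. For the 34 members with medians between -0.29 and 0.24 it gave -0.28 to 0.33, with 0.33 around Tnfrsf10b and 0.28 around Eda2r. Around Cdkn1a the median went from 0.00 to -0.18, and around Rps27l it turned from -0.11 to 0.12. The cause was not tested. Depth limits Gdf15 in the β1-WT-GFP cultures and Cd80 and Perp in all cultures, where counts were at or under the floor.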
